A study of Mus musculus with 2 samples.

Results

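Nuclear genes of the mitochondrial respiratory chain were examined for EGR1 peaks at their promoters in mouse frontal cortex. The genes were taken from GENCODE M21 by symbol: protein-coding nuclear genes starting with Nduf, Uqcr, Atp5 or Cox4 to Cox8, and Sdha to Sdhd. This gave 94 gene entries of 21938 protein-coding genes, with 93 symbols, since Atp5o has 2 entries. They comprise 46 genes of complex I, 4 of complex II, 8 of complex III, 18 of complex IV and 18 of complex V. The 8 Ndufaf genes, which encode assembly factors of complex I and not subunits, are among the 46. A promoter peak is a peak whose centre lies within 1 kb of an annotated transcription start site (TSS) of the gene.

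EGR1 was profiled by chromatin immunoprecipitation and sequencing in frontal cortices of male F1 hybrids (strain C57BL6N/129SvEv) at 6 weeks. The 2 ChIP experiments pooled 4 to 5 mice each and were merged into 1 list of 12014 peaks on mm10, with an irreproducible discovery rate (IDR, read like a q-value) of at most 2% for each peak. A lower IDR means that a peak ranked high in both replicates. The accompanying input DNA had no processed file, so neither read depth nor signal per peak is known. With 1 merged list there is no replicate spread and no test between samples, and the 95% Wilson intervals given with shares cover counting error only, over genes that are not replicates of each other. The cortex holds neurons, glia and vascular cells, and a peak list carries no marker by which the tissue or the cell type of a peak could be checked.

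The respiratory chain passes electrons from NADH (complex I) and succinate (complex II) through complex III and cytochrome c to oxygen (complex IV), and the proton gradient so built drives ATP synthesis by complex V. Its subunits are split between the nuclear and the mitochondrial genome, and only the nuclear ones have promoters that a nuclear transcription factor can occupy. Neurons depend on this pathway for most of their ATP. EGR1 is an immediate early zinc-finger factor, induced by neuronal activity, that recognises the GC-rich letters GCGTGGGCG and GCGGGGGCG. NRF1, the ETS factor GABP, YY1 and SP1 are the factors best known to act at nuclear respiratory chain promoters.

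The sequences below show that some peaks at these promoters hold an exact EGR1 match and others with similarly low IDR do not. Most promoter peaks of protein-coding genes in general held no exact match either. All were read from GRCm38.p6 (mm10). The first 5 lines are exact matches in peaks of respiratory chain genes (the other 2 of the 7 are in the longer stretches that follow), each as 29 bases along the strand that reads the EGR1 letters, with the match in capitals. They lie at chr13:108158609-108158637 (minus strand), chr6:39592714-39592742, chr4:116075634-116075662, chr10:80138148-80138176 and chr15:102671038-102671066 (plus strand).
Ndufaf2: gcggagcttaGCGTGGGCGtgtcctccgg
Ndufb2: tgagtgtcggGCGGGGGCGagggttcggc
Uqcrh: ccggcagcgaGCGGGGGCGgcccggcggc
Atp5d: agggaggcggGCGGGGGCGcgggggaggc
Atp5g2: acagagagggGCGGGGGCGcgggaagcgc

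The longest exon-free stretches of the lowest-IDR peaks of complexes II to V are shown along the strand of the gene. For Cox7a2l (chr17:83514560-83514788, minus strand) and Atp5d (chr10:80139366-80139531, plus strand) the capitals mark the exact EGR1 match. For Sdhc (chr1:171150604-171150710, minus strand) and Uqcr11 (chr10:80406831-80406984, minus strand) they mark the 9 bases closest to either EGR1 form, which differ from it at 1 position in Sdhc and at 2 in Uqcr11.
Cox7a2l: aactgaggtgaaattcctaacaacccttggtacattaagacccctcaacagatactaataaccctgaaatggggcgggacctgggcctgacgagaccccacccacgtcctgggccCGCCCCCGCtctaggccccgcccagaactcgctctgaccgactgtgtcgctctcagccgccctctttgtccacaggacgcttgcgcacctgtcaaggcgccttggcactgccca
Atp5d: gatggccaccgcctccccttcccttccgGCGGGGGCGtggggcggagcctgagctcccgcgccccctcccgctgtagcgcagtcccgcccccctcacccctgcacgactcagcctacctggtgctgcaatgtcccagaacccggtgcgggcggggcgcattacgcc
Sdhc: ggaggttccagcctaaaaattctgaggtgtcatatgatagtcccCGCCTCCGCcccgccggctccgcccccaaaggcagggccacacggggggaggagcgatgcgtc
Uqcr11: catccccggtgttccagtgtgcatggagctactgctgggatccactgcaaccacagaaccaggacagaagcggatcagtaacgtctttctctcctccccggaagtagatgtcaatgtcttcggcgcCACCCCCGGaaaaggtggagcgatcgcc

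Promoter sequence of 2 genes without a promoter peak is shown for comparison, along the strand of the gene and ending upstream of the first exon. In Atp5b (chr10:128083023-128083272, plus strand), the catalytic β subunit of complex V, capitals mark 3 SP matches (GGGCGG or its reverse complement). In Cox6a1 (chr5:115348982-115349129, minus strand), a small subunit of complex IV, they mark 3 matches to the NRF1 letters GCGCANGCG, of which 2 overlap.
Atp5b: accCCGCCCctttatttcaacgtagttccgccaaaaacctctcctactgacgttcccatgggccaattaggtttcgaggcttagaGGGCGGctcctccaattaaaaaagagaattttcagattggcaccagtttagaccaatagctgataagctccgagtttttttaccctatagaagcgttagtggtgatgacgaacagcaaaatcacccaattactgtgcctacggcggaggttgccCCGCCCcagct
Cox6a1: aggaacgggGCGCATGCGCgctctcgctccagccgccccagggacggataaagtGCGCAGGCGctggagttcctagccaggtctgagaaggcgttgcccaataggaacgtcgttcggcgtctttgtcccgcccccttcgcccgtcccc

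A promoter peak was found at 30 of the 94 respiratory chain genes, or 31.9% (95% Wilson interval 23.4 to 41.9%). Over all protein-coding genes the share was 28.1%, which lies inside that interval, so the set as a whole carried promoter peaks about as often as protein-coding genes in general. At an IDR of at most 0.001, 23 of the 94 genes had a promoter peak, against 20.4% of all protein-coding genes. Complex V, the ATP synthase, had a promoter peak at 10 of 18 genes (55.6%, 33.7 to 75.4%), and this interval lay above the background share. With each peak counted only for the gene with the nearest TSS it no longer did (7 of 18, 38.9%, 20.3 to 61.4%, against 25.5% of other protein-coding genes). Complex IV, cytochrome c oxidase, had 3 of 18 (16.7%, 5.84 to 39.2%) and complex I, NADH dehydrogenase, 11 of 46 (23.9%, 13.9 to 37.9%). Complexes II and III, with 2 of 4 (50%, 15.0 to 85.0%) and 4 of 8 (50%, 21.5 to 78.5%), were too small for a narrow interval. Within complex I, 4 of the 8 Ndufaf assembly factors had a promoter peak (50%, 21.5 to 78.5%), and 7 of the 38 other Nduf genes did (18.4%, 9.22 to 33.4%). These 38 were grouped by symbol only and include Ndufa4 and Ndufa4l2. The intervals of complex V and complex IV overlap, as do those of the Ndufaf assembly factors and the other Nduf genes. No difference between complexes was tested.

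**Figure D1:**
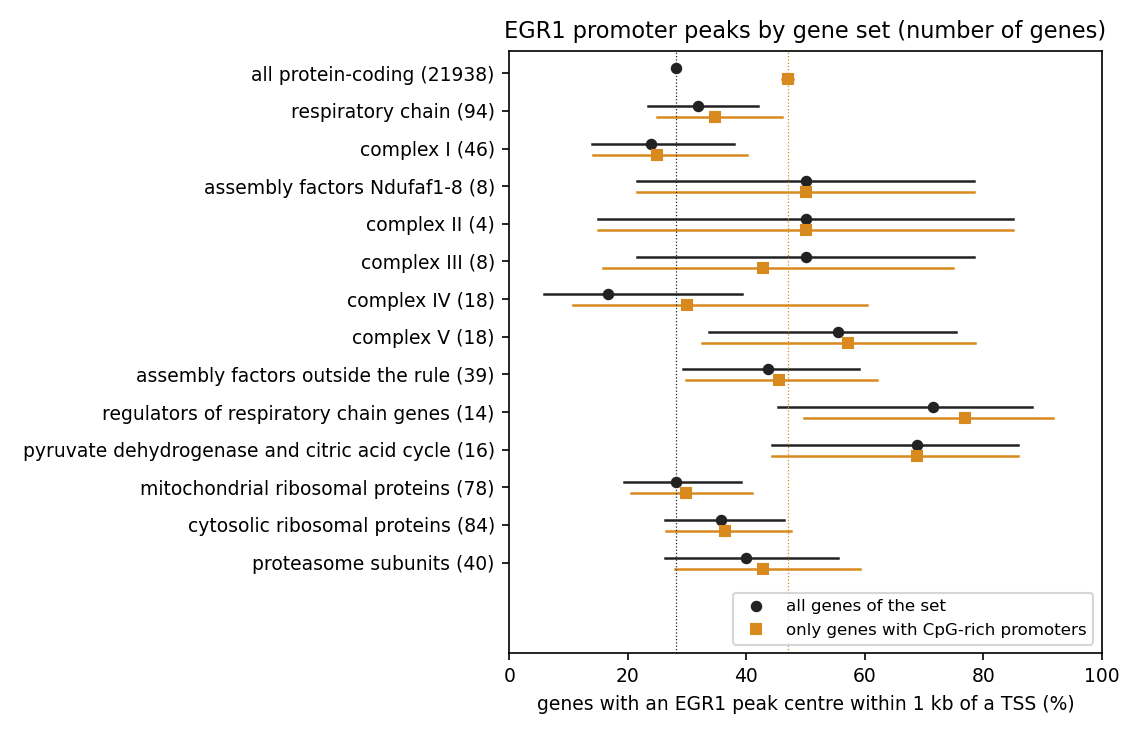
Percentage of genes with an EGR1 promoter peak (x axis) in each gene set (y axis, number of genes in brackets), for all genes of the set (black circles) and for those with CpG-rich promoters only (orange squares). Bars are 95% Wilson intervals and dotted lines are the shares over all protein-coding genes, 28.1% and 47.0%; among the complexes, V has the highest share, 55.6%, and IV the lowest, 16.7%.

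In complex I, the lowest IDR values were those of assembly factors. Ndufaf2, which acts late in assembly, had an IDR of 4.97e-08 at a peak 41 bp upstream of its TSS (chr13:108158572-108158756). Ndufaf8, a partner of Ndufaf5 in the modification of a core subunit, had 2.99e-07 at 28 bp upstream. The third was Ndufb3, an accessory subunit of the membrane arm, with 1.77e-06 at 99 bp upstream. Ndufaf3 and Ndufaf4, which act together early in assembly, had 7.16e-06 and 4.07e-05. The other 6 genes with a promoter peak were the accessory subunits Ndufa5, Ndufb6, Ndufa8, Ndufc2 and Ndufb2, with IDR values from 8.38e-06 to 0.00796, and the core subunit Ndufs1. Ndufs1 carries iron-sulphur clusters of the NADH-oxidising module, and its peak, 225 bp upstream, had the highest IDR of the complex, 0.0180.

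Other core subunits of complex I had no promoter peak. The nearest peak centre lay 7730 bp from a TSS of Ndufs7, 10309 bp from Ndufv2, 10926 bp from Ndufs3, 60742 bp from Ndufs8 and 84475 bp from Ndufv1. These genes encode subunits of the arm that leads electrons to ubiquinone. A further 29 genes without a promoter peak were Ndufa1, Ndufa2, Ndufa3, Ndufa4, Ndufa4l2, Ndufa6, Ndufa7, Ndufa9, Ndufa10, Ndufa11, Ndufa12, Ndufa13, Ndufab1, Ndufaf1, Ndufaf5, Ndufaf6, Ndufaf7, Ndufb4, Ndufb5, Ndufb7, Ndufb8, Ndufb9, Ndufb10, Ndufb11, Ndufc1, Ndufs4, Ndufs5, Ndufs6 and Ndufv3.

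In complex II, which also works in the citric acid cycle, the peaks lay at the membrane anchor subunits. Sdhc had an IDR of 1.72e-07 at 54 bp upstream, and Sdhd 5.04e-07 at 437 bp upstream. The catalytic subunits had none: the nearest peak centre was 40379 bp from the flavoprotein gene Sdha and 25432 bp from the iron-sulphur gene Sdhb. In complex III, the small subunits Uqcr11 and Uqcrq had IDR values of 6.99e-07 (51 bp upstream) and 8.19e-07 (203 bp upstream). Uqcrc2, a core protein on the matrix side, had 0.000407 at 17 bp downstream. Uqcrh, the hinge protein between cytochromes c1 and c, had 2 peaks, with 0.00216 at 529 bp and 0.00825 at 110 bp upstream. Uqcrc1, Uqcrb, Uqcr10 and the Rieske iron-sulphur gene Uqcrfs1 had none, and the nearest peak centre lay 43597 bp from Uqcrc1 and 559756 bp from Uqcrfs1.

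In complex IV, the lowest IDR of all respiratory chain peaks was that of Cox7a2l, 2.4e-08, which ranked 158 in the whole list. Cox7a2l resembles a complex IV subunit by name and sequence and is known as a factor that joins complexes III and IV into supercomplexes. Its peak lay 344 bp upstream of the TSS, in an annotated intron. Cox5a, a subunit on the matrix side, had 0.000118 at 178 bp upstream, and Cox6c, a small membrane subunit, had 0.00195 at 105 bp downstream. Cox4i1, which binds early to the mitochondrially encoded core, and Cox5b had none, with the nearest peak centres at 33608 and 18353 bp. Cox7c had none either.

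Several subunits of complex IV exist as a widely expressed isoform and an isoform of muscle, lung or testis. None of these genes had a promoter peak in either form: Cox4i1 and Cox4i2, Cox6a1 and Cox6a2, Cox6b1 and Cox6b2, Cox7a2 and Cox7a1, Cox7b and Cox7b2, and Cox8a, Cox8b and Cox8c. The same held for Ndufa4 and its paralogue Ndufa4l2. The nearest peak centres ranged from 3170 bp (Ndufa4l2) to 1162360 bp (Ndufa4), with 7697 bp for Cox6a1, 27796 bp for Cox6a2, 24162 bp for Cox6b1, 12376 bp for Cox6b2, 33523 bp for Cox7a2, 14245 bp for Cox7a1, 251838 bp for Cox7b, 108766 bp for Cox7b2, 23539 bp for Cox8a, 12094 bp for Cox8b, 20739 bp for Cox8c and 14636 bp for Cox4i2. The promoters of the isoform pairs were unlike in sequence: the observed/expected CpG ratio, which falls where CpG has been lost, was 0.186 to 0.467 in the 8 restricted isoforms, Ndufa4l2 included, and 0.693 to 0.997 in the widely expressed ones other than Cox7b (0.482). The lack of a promoter peak was therefore common to CpG-poor and CpG-rich promoters in this family. Over all protein-coding genes, 11.0% of those with ratios below 0.6 had a promoter peak, and 47.0% of those with ratios of at least 0.6. The absence at the 8 restricted isoforms is thus close to that background, and no difference was tested.

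In complex V, the 3 genes that encode the same mature c subunit of the rotor ring, Atp5g1, Atp5g2 and Atp5g3, all had a promoter peak. Their CpG ratios were at least 0.6, where the background share was 47.0%. Atp5g1 had an IDR of 0.000106 at 297 bp upstream and Atp5g2 one of 9.93e-05 at 89 bp downstream. Atp5g3 had 2 peaks, with 0.000359 at 66 bp and 0.00577 at 174 bp upstream of different TSSs. Atp5d, the δ subunit of the central stalk, had 3 peaks: 1.39e-07 at a TSS (1 bp), 7.44e-08 at 805 bp downstream and 0.0156 at 397 bp upstream. The peak at 805 bp was the most distal of all, and it lay 72 bp upstream of a TSS of Cbarp. Atp5s, coupling factor B, had 1.94e-07 at 57 bp upstream.

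Of the peripheral stalk, which holds the catalytic head still, Atp5f1 (b subunit, 0.00410), Atp5h (d subunit, 0.0141) and Atp5j (F6, 6.15e-05) had a promoter peak and Atp5o (the OSCP subunit) did not under either of its gene entries. Atp5mpl, a small associated protein, had 0.000185 at 178 bp downstream. Atp5l (g subunit) had 2 peaks, with 0.000411 at 540 bp upstream and 0.00206 at 147 bp downstream. The catalytic head genes Atp5a1 (α) and Atp5b (β) had none, and the nearest peak centre lay 5924 bp and 4233 bp from them. Of the central stalk, Atp5c1 (γ), 28761 bp from the nearest peak centre, and Atp5e (ε) had none, unlike Atp5d. Atp5k and Atp5j2 also had none.

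The 35 promoter peaks of respiratory chain genes had a median IDR of 0.000106, and 24 of them (68.6%) had an IDR of at most 0.001. For the 6636 promoter peaks of all protein-coding genes the median was 7.11e-05 and the share 68.2%. The peak centres had a median position of 58 bp upstream of the TSS, 25 of 35 lay upstream (71.4%, 61.8% over all gene and peak pairs), and 27 lay within 250 bp (77.1%, 70.5% over all). By annotation, 19 centres were upstream of every transcript of the gene, 10 in untranslated exons, 5 in introns and 1, that of Ndufb2, in coding sequence. In IDR and position these peaks were thus close to promoter peaks in general.

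**Figure D2:**
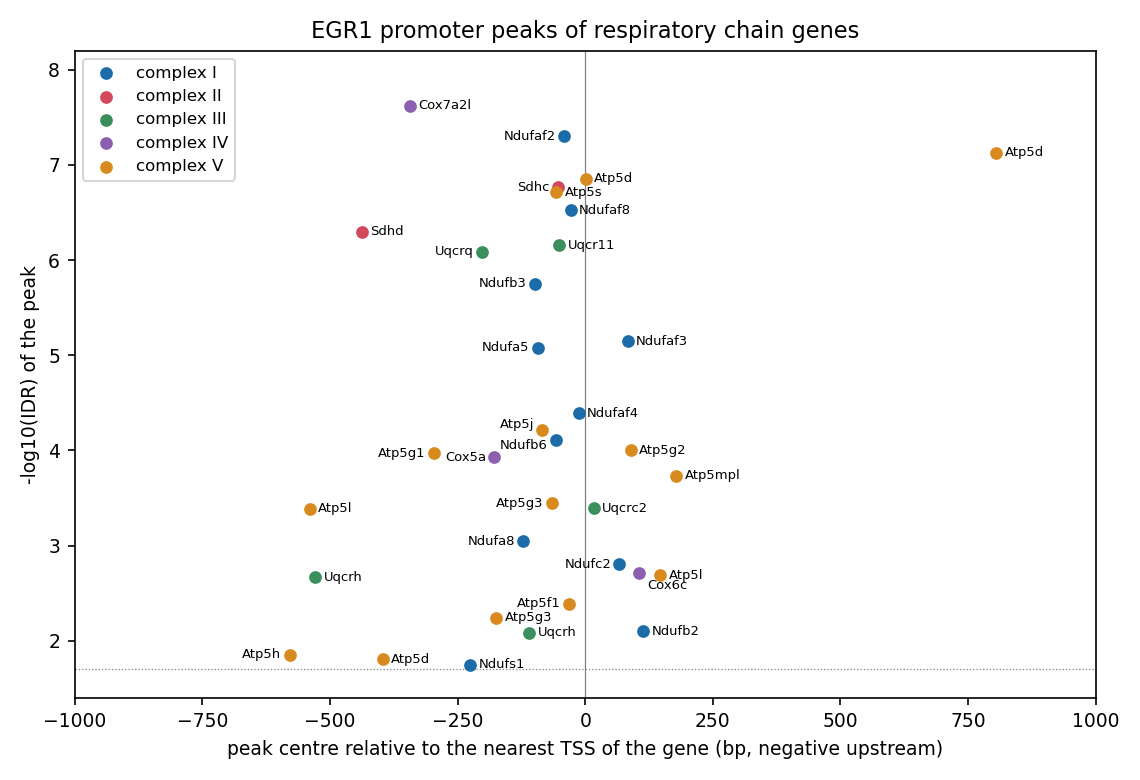
Each point is 1 of the 35 promoter peaks, at the distance of its centre from the nearest TSS of the gene (x axis, bp, negative upstream) and its −log10 IDR (y axis, no unit, higher for more reproducible peaks), coloured by complex. The dotted line is the IDR limit of 2%; most peaks lie within 250 bp of the TSS, and the Atp5d peak at 805 bp is the most distal.

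No gene had its closest peak centre between 579 and 2625 bp from a TSS. The genes nearest to the limit on the inside, by their closest peak, were Cox7a2l (344 bp), Sdhd (437 bp) and Atp5h (579 bp), and those nearest on the outside were Ndufb10 (2625 bp), Ndufa4l2 (3170 bp) and Atp5b (4233 bp). Among the 64 genes without a promoter peak, the median distance to the nearest peak centre was 31824 bp, with 8 genes under 10 kb and 11 over 100 kb. For the other protein-coding genes without a promoter peak the median was 69466 bp.

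The EGR1 letters GCGTGGGCG or GCGGGGGCG, searched on both strands, were found in 7 of the 35 peaks (20.0%, 10.0 to 35.9%), against 23.1% of all promoter peaks of protein-coding genes. These were the peaks of Ndufaf2, Ndufb2, Uqcrh, Cox7a2l, Atp5g2 and 2 of the 3 peaks of Atp5d, shown above. Only that of Ndufaf2 had the T form. The best match differed from the letters at 1 position in 20 further peaks, at 2 positions in 6 and at 3 positions in 2, those of Uqcrh 110 bp upstream and of Atp5l 540 bp upstream. Among the 10 peaks with the lowest IDR, up to 8.19e-07, 3 had an exact match. At an IDR of at most 0.001, 4 of 24 peaks did (16.7%), against 27.3% of other promoter peaks. A low IDR was thus seen with an exact match, as in Cox7a2l, and without one, as in Uqcr11, where the closest 9 bases had 2 mismatches. Where no match was found, this says only that these letters are not in the peak.

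Promoters of respiratory chain genes were rich in CpG. A promoter was called CpG-rich where the observed/expected CpG ratio in the 500 bp to each side of the representative TSS was at least 0.6, which held for 75 of the 94 genes (79.8%) and for 47.6% of all protein-coding genes. Among CpG-rich promoters, 26 of 75 respiratory chain genes had a promoter peak (34.7%, 24.9 to 45.9%), against 47.0% of all protein-coding genes with such promoters. The latter lies above the interval, so that the share was slightly higher than that of all genes but lower than that of genes with like CpG content. At CpG ratios of 0.6 to 0.8, where most of these genes fall, 16 of 52 had a peak (30.8%, 19.9 to 44.3%) and 44.3% of other protein-coding genes did. At ratios of 0.8 to 1, 10 of 22 had a peak (45.5%) and 51.2% of the others.

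By complex, the share among CpG-rich promoters was 25% for complex I (10 of 40), 50% for complex II (2 of 4), 42.9% for complex III (3 of 7), 30% for complex IV (3 of 10) and 57.1% for complex V (8 of 14, 32.6 to 78.6%, which contains 47.0%). Only complex I had an interval (14.2 to 40.2%) wholly below 47.0%. Among the 19 CpG-poor promoters, 4 genes had a peak (21.1%), against 11.0% of all protein-coding genes with such promoters: Ndufa5, Uqcr11, Atp5d and Atp5f1. All 4 had ratios of 0.4 to 0.6, where 4 of 12 had a peak (33.3%, 13.8 to 60.9%) and 26.4% of other protein-coding genes did. Below 0.4 no respiratory chain gene had a peak, with 6 genes at 0.2 to 0.4 and 1 below 0.2. At the representative TSS, respiratory chain genes with and without a promoter peak had similar median CpG ratios, 0.761 and 0.709. The medians of other protein-coding genes were 0.754 with a peak and 0.387 without. Genes without a peak in this family therefore mostly had CpG-rich promoters.

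**Figure D3:**
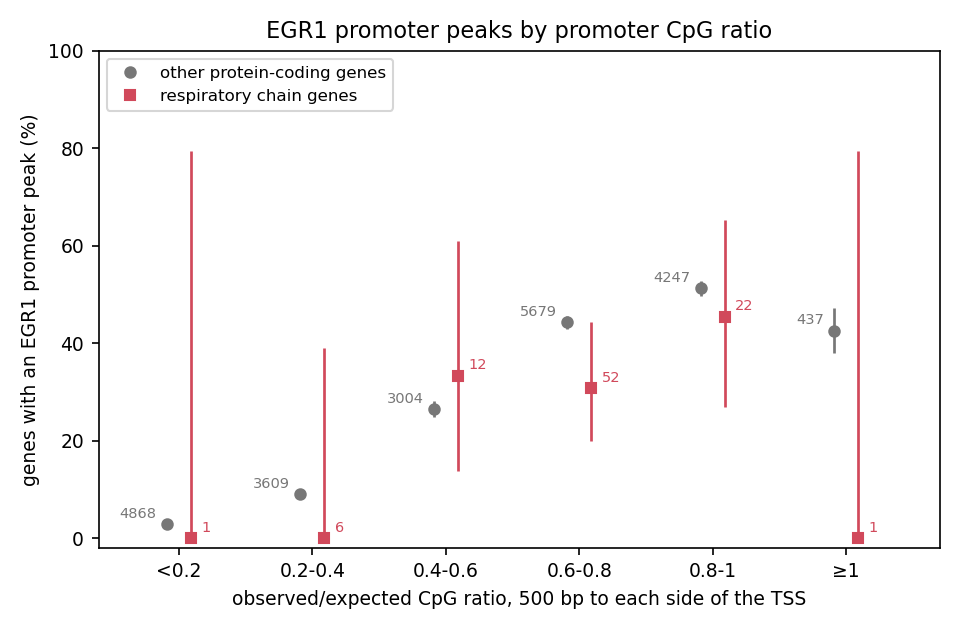
Percentage of genes with an EGR1 promoter peak (y axis) by the observed/expected CpG ratio of the promoter (x axis, bins), for respiratory chain genes (red squares) and other protein-coding genes (grey circles). Bars are 95% Wilson intervals and the numbers are genes per bin; at 0.6 to 0.8, the bin with 52 respiratory chain genes, the shares are 30.8% and 44.3%.

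Other motifs were searched in windows from 250 bp upstream to 50 bp downstream of the representative TSS, on both strands. The NRF1 letters GCGCANGCG were in 19 of the 94 windows (20.2%, 13.3 to 29.4%), against 8.60% of all protein-coding genes, and the ETS letters CCGGAAG in 17 (18.1%, 11.6 to 27.1%), against 11.2%. The YY1 letters AAGATGGCG were in 5 windows (5.32%, 2.29 to 11.9%), against 1.87%. The SP letters GGGCGG were in 41 (43.6%, 34.0 to 53.7%), against 45.4%, and an EGR1 match was in 1 window, that of Ndufaf2 (1.06%, 0.188 to 5.78%), against 4.71%. An SP match can overlap an EGR1 match that is followed by G. The background of CpG-rich promoters was higher, at 15.5% for NRF1, 18.9% for ETS and 72.0% for SP, and there the windows of the 75 CpG-rich respiratory chain genes held them in 21.3%, 20.0% and 46.7%. The EGR1 letters were in 8.55% of all CpG-rich windows and in 1 of these 75 (1.33%, 0.236 to 7.17%). For YY1 the shares were 3.43% and 6.67% (2.88 to 14.7%). Thus these promoters were CpG-rich but held SP letters in fewer windows than other CpG-rich promoters, and the interval for SP, 35.8 to 57.8%, did not reach 72.0%. Their median GC content in the 500 bp to each side of the TSS was also lower, at 56.9% against 61.6% for all CpG-rich promoters.

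The NRF1 letters were in 7 windows of complex I, 2 of complex II, 2 of complex III, 1 of complex IV (Cox6a1) and 7 of complex V. Of the 19 genes with them, 10 had an EGR1 promoter peak (52.6%, 31.7 to 72.7%): Ndufaf4, Ndufa8, Sdhd, Uqcr11, Atp5d, Atp5g2, Atp5g3, Atp5l, Atp5mpl and Atp5h. The 9 without a peak were Ndufa11, Ndufaf5, Ndufb4, Ndufs5, Ndufs7, Sdha, Uqcrc1, Cox6a1 and Atp5k. Of the 75 genes without these letters, 20 had a peak (26.7%, 18.0 to 37.6%). The same shares over all protein-coding genes were 46.2% with and 26.4% without the letters, so the respiratory chain genes lay close to them on both sides. Among CpG-rich promoters of all genes the shares were 50.2% and 46.4%.

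ETS letters were present in 9 of the 30 windows of genes with a peak (30%, 16.7 to 47.9%) and in 8 of 64 without (12.5%, 6.47 to 22.8%), against 16.6% and 9.07% in other protein-coding genes. In windows of 500 bp to each side of the TSS the 2 shares were alike, at 33.3% (10 of 30) and 31.3% (20 of 64). SP letters were in 14 of 30 (46.7%, 30.2 to 63.9%) and 27 of 64 (42.2%, 30.9 to 54.4%). In other protein-coding genes, SP letters separated the groups further, at 73.4% of windows with a peak and 34.5% without. Those without a peak were mostly lower in CpG ratio. Among CpG-rich promoters of all genes, 52.0% of those with SP letters and 34.1% of those without had a peak.

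**Figure D4:**
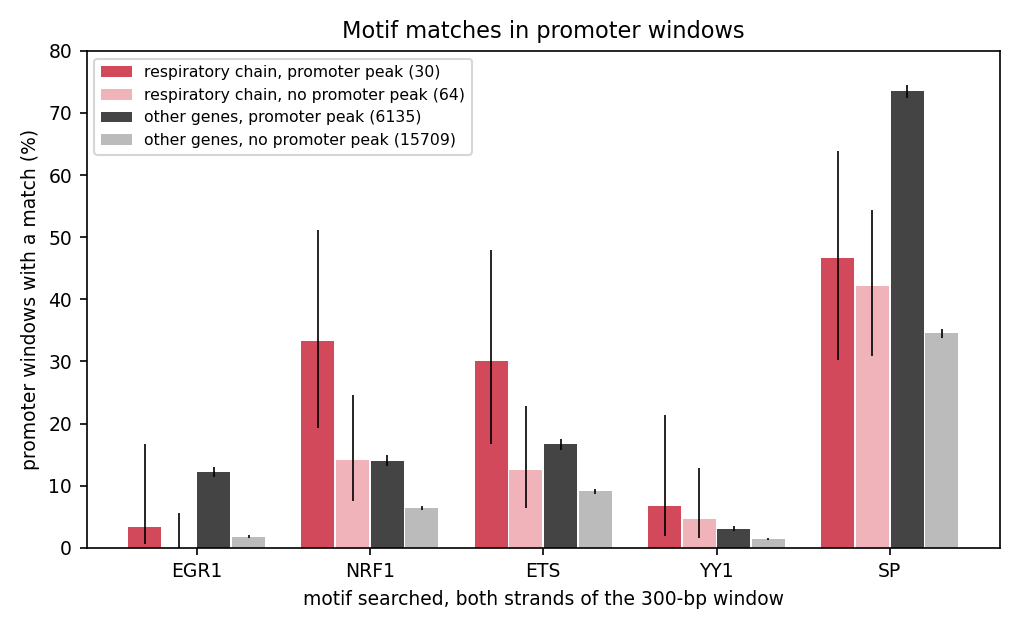
Percentage of 300-bp promoter windows (y axis) with at least 1 match to each motif (x axis), for respiratory chain genes with and without a promoter peak (dark and light red) and other protein-coding genes with and without (dark and light grey). Bars start at 0, with 95% Wilson intervals as lines and the number of genes in brackets; SP matches are in 46.7% and 42.2% of the respiratory chain windows and in 73.4% and 34.5% of the others.

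A head-to-head partner, a protein-coding gene on the other strand with a TSS within 1 kb, was annotated for 36 of the 94 genes (38.3%), against 12.3% of all protein-coding genes. They were 21 of complex I, 3 of complex II, 4 of complex III, 1 of complex IV and 7 of complex V. Of the 36, 15 had a promoter peak (41.7%, 27.1 to 57.8%), and of the 58 without a partner also 15 (25.9%, 16.3 to 38.4%). Over all protein-coding genes the shares were 48.2% with and 25.3% without a partner.

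In all, 18 of the 35 peaks also lay within 1 kb of another protein-coding gene, and 12 of them were nearer to that gene than to the respiratory chain gene. Over all protein-coding genes, 6636 promoter peaks gave 7411 gene and peak pairs, so most of those peaks lay near a single gene. The share of them near a second gene was not counted. The partner was nearer, for example, at Ndufa8 (Morn5), Ndufb3 (Fam126b), Ndufs1 (Eef1b2), Sdhd (Timm8b), Uqcrq (Gdf9), Atp5h (Kctd2) and Atp5j (Gabpa), at both peaks of Uqcrh (Lrrc41) and at 2 of the peaks of Atp5d (Cbarp). Timm8b encodes a chaperone of mitochondrial protein import, and Gabpa the DNA-binding subunit of GABP, an activator of respiratory chain genes, so that its promoter peak, 9 bp upstream of its TSS, is the same one as that of Atp5j. A peak list cannot show which of 2 divergent genes a peak belongs to. With each peak counted only for the gene with the nearest TSS, 20 of the 94 genes had a promoter peak (21.3%, against 25.5% of other protein-coding genes). Complex II then had 0 of 4 and complex III 2 of 8 (25%).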

How the data were processed

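EGR1 ChIP-seq in frontal cortex of 6-week-old mice was analysed from 1 deposited peak list. The authors aligned trimmed 100-bp paired-end reads to mm10 using Bowtie, ran the SPP peak caller on each replicate and kept peaks at an IDR of at most 2% in the merged replicates. The deposited IDR values are read like q-values. The input DNA was not analysed here.

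Starts were taken to count from 0, their convention not being given in the sources used here, and positions were printed from 1. Peak centres were compared with every TSS of GENCODE M21 protein-coding genes. The 76 peaks on scaffolds were left out, and 11938 remained. The representative TSS was chosen by APPRIS, CCDS and basic tags and length. Sequence was read from GRCm38.p6 with pysam 0.24.0, and Wilson intervals came from scipy 1.17.1. Distances and motif searches were tested on simulated data.

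Genes are named once as with or without a promoter peak, and a few items are not reported here. Values are given for core subunits, isoform pairs, the 3 lowest IDR values of each complex, genes with more than 1 peak and genes nearest to the 1 kb limit. Genes and lists were chosen with earlier results of these data known. Alternatives were other distances, IDR limits, TSS choices, peak assignments, windows and motif matches.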

Additional observations from a re-analysis of the deposited data

How the results depend on the processing

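Over 16 results and 91 alternative settings, 83 values stayed within the interval or quartiles first given and 8 moved. Of 71 alternatives for shares, 6 lay on the other side of the share of other protein-coding genes: the whole set and complexes II and III under the nearest TSS, the whole set with CpG-rich promoters only (34.7% against 47.1%), complex I within 250 bp (23.9% against 22.1%) and SP letters in the wider window. Where each peak was given only to the gene with the nearest TSS, the share of respiratory chain genes with a promoter peak was 21.3% (25.5% over other protein-coding genes), that of complex II was 0% and that of complex III 25%. Allowing at most 1 mismatch, an alternative chosen after seeing the data, found the EGR1 letters in 77.1% of the peaks (83.7% over other promoter peaks). In the 300-bp window the median CpG ratio of genes with a peak was 0.853. In windows of 500 bp to each side, NRF1 letters were in 30.9% of promoters, ETS in 31.9%, YY1 in 17.0% and SP in 74.5%, against 13.1%, 19.4%, 3.64% and 61.6% of the others. Depth per peak and the spread between the 2 ChIP experiments are unknown, so no replicate could be left out. No paired analysis was possible because only 1 merged peak list was analysed and no result comes from a test between samples.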

Other observations

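Genes that build, regulate or feed the respiratory chain were looked up in the same peak list, by lists chosen with earlier results of these data known. Of 39 assembly factors outside the naming rule, 17 had an EGR1 promoter peak (43.6%, 95% Wilson interval 29.3 to 59.0%), against 28.1% of all protein-coding genes. Among the 33 of them with CpG-rich promoters 15 had a peak (45.5%), close to the 47.0% of all genes with such promoters. They included Sdhaf3, which supports assembly of complex II (IDR 1.68e-08, 5 bp upstream of a TSS), Atpaf2, an assembly factor of the ATP synthase head (3.93e-08, 41 bp upstream), Ttc19, a complex III factor (9.52e-08, 55 bp upstream), and Coa7, a complex IV factor (1.59e-07, 25 bp upstream). Other complex IV factors with a peak were Coa5 (2.71e-06), Cox14 (3.78e-06), Cox20 (2.77e-05), Coa6 (0.000155) and Cox15 (0.00303). Complex IV factors without one included Surf1, Sco1, Sco2, Cox10, Cox11 and Cox17.

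Of 14 regulators of respiratory chain genes, 10 had a promoter peak (71.4%, 45.4 to 88.3%), against 28.1% of all protein-coding genes. These were Tfam, which packages and transcribes mitochondrial DNA (IDR 6.26e-08, 130 bp downstream), Tfb1m (4.06e-07), Esrra (1.41e-06), Sp1 (5.44e-06), Gabpa (6.15e-05), Tfb2m (0.000481), Pprc1 (0.000568), Gabpb2 (0.00234), Nrf1 (0.00827) and Yy1 (0.0122). The coactivators Ppargc1a and Ppargc1b, Gabpb1 and the mitochondrial RNA polymerase gene Polrmt had none. Of 16 genes of the pyruvate dehydrogenase complex and the citric acid cycle, 11 had a promoter peak (68.8%, 44.4 to 85.8%), among them Dlat (6.47e-08), Mdh2 (4.72e-07), Pdhb (9.15e-07) and Fh1 (1.29e-06), while Pdha1, Dld, Dlst, Idh3g and Sucla2 had none. Cycs, cytochrome c, had a peak 190 bp downstream of a TSS (2.25e-06). All 16 genes of the cycle and 13 of the 14 regulators had CpG-rich promoters, for which the share over all protein-coding genes was 47.0%. Of these 13 regulators 10 had a peak (76.9%, 49.7 to 91.8%), an interval above 47.0%. The interval of the 16 cycle genes, 44.4 to 85.8%, contains it. Other large housekeeping sets lay nearer to the respiratory chain genes: 22 of 78 mitochondrial ribosomal protein genes (28.2%, 19.4 to 39.0%), 30 of 84 cytosolic ribosomal protein genes (35.7%, 26.3 to 46.4%) and 16 of 40 genes named Psma to Psmd, which are proteasome subunits except Psmc3ip (40.0%, 26.3 to 55.4%). No difference between these lists was tested.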
